A study of Mus musculus with 6 samples.

Results

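The transcripts described here are 39 genes that mark T lymphocytes and natural killer (NK) cells, given as a list of names with no threshold on their values, although earlier results of these data were known when the list was drawn up. A row was found for 38 of the 39 among the 22962 genes of the table, and the NK receptor gene Ncr1 had none. RNA was sequenced from cells labelled alveolar macrophages, the phagocytes of the lung air spaces, of C57BL/6 mice 2 weeks after intratracheal instillation of either saline or bleomycin. Bleomycin, a DNA-breaking drug, is used to produce lung fibrosis in mice, and the series set normal against fibrotic lungs. Each group had 3 libraries, numbered 1, 2 and 3 for saline and 1, 2 and 5 for bleomycin. All mice were of the same strain, with no genetic change named in the labels, and neither their age nor their sex is given there. In both groups the lavage cells were freed of red blood cells, left briefly on culture plates and washed, and the cells still attached were lysed, so that adherence is the only selection for macrophages the labels name. Whether each library is a separate mouse is not stated in the labels, and p-values therefore reflect only how far these samples spread, which may be partly technical.

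T cells recognise peptides through the T cell receptor, whose variable chains signal through the CD3 chains and the kinases Lck and Zap70. The coreceptors CD4 and CD8 divide helper from cytotoxic T cells, and costimulatory receptors such as CD28 and ICOS set whether a recognised signal leads to activation. Naive T cells hold high levels of the transcription factors Tcf7 and Lef1, whereas NK cells and cytotoxic T cells carry perforin and granzymes. Macrophages make the bulk of the cells in a normal lavage, and lymphocytes enter the air spaces in many forms of lung injury.

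Values are normalized read counts, in which 1 read was worth about 1 unit, and each gene's values are given in the order saline replicates 1, 2 and 3, then bleomycin replicates 1, 2 and 5. Libraries held 27654799 to 37147983 reads assigned to genes. The list of resident alveolar macrophage markers summed to 516464 to 668226 in saline and 323469 to 418671 in bleomycin libraries, so the labelled cell type was present in all 6, and the 38 transcripts of T and NK cells summed to 192, 215 and 216 in the saline libraries. Among bleomycin libraries, replicate 1 stood apart: the T and NK transcripts summed to 968 in it against 2613 and 3014 in replicates 2 and 5, although it held 35525055 reads. Counts of called genes are therefore also given without it. In bulk RNA, fewer cells of a type and less RNA per cell cannot be told apart.

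T and NK transcripts were near 0 after saline and clearly present after bleomycin. The mean was under 10 in saline for 33 of the 38 genes, 8 had no read in any saline library, and 34 had reads in every bleomycin library. A gene was tested with limma on log2(value + 1) if it reached 10 in at least 3 libraries, and was called at a Benjamini-Hochberg adjusted p under 0.05 over all 13512 tested genes. Of the 29 T and NK genes tested, 28 were called higher, 1 (Cd27) was not called and none was called lower, by limma, edgeR or DESeq2. Over all tested genes 9.76% were called higher and 3.9% lower, 13.7% in either direction. For 21 of the 29, only bleomycin libraries reached the minimum; such genes had to differ, so the count of calls is a description and no support. The difference was above 0 in 38 of 38 genes, so that none was lower at an unadjusted p under 0.05 either, and in 54.2% of all 22962 genes. Groups did not overlap in 32 of the 38, and in 23.5% of all 22962 genes. The median log2 difference was 4.05, against 0.05 over all genes. From ratios of the groups' summed reads it was 4.31, where the 8 genes with no saline read enter as lower bounds against a floor of 3 reads. A difference on the log2(value + 1) scale can understate the change of low genes. It can also overstate it where a saline library is at 0, as for Cd4 (4.23, against 3.60 from summed reads).

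**Figure D1:**
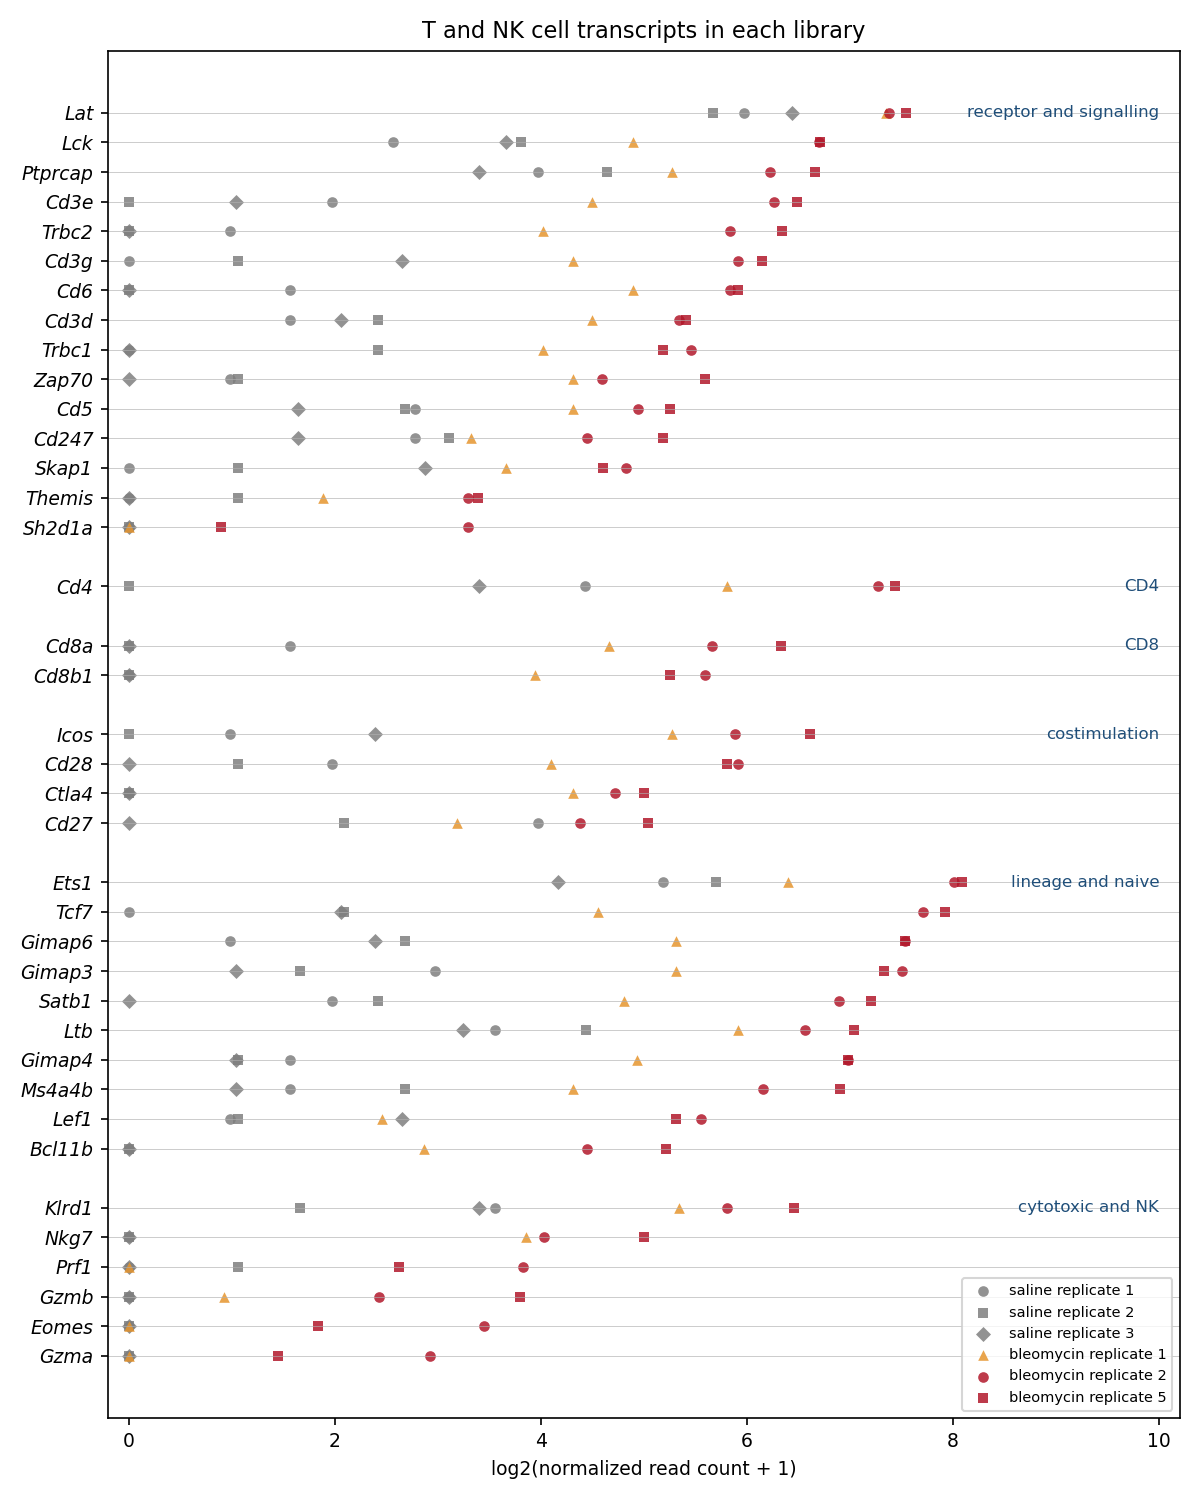
Level of each of the 38 T and NK transcripts in each library, as log2(normalized read count + 1) on the x axis, with genes grouped by role and 1 marker per library. Saline markers sit at or near 0 for most genes, and bleomycin replicate 1 lies to the left of bleomycin replicates 2 and 5 in all 38.

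The 3 CD3 genes, whose protein chains carry the signal of the T cell receptor into the cell, rose together. They lie within 40.1 kb of chromosome 9 (44969572 to 45009627, GRCm38). Cd3d (ENSMUSG00000032094) is read from the opposite strand to Cd3e (ENSMUSG00000032093) and Cd3g (ENSMUSG00000002033). The stretches before their start sites are shown because these neighbours changed in the same direction, on the coding strand of each gene, from RefSeq's annotation of GRCm38.p6. They are chr9:44981536-44981785 (plus strand), chr9:45009628-45009861 (minus strand) and chr9:44980432-44980681 (minus strand), and capitals mark the letters AGGAAG or their reverse complement CTTCCT, the core of many ETS family sites:
Cd3d: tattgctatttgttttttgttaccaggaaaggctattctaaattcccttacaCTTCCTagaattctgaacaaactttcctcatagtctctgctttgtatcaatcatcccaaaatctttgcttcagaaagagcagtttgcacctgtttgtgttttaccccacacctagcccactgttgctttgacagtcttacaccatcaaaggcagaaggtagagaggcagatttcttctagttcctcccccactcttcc
Cd3e: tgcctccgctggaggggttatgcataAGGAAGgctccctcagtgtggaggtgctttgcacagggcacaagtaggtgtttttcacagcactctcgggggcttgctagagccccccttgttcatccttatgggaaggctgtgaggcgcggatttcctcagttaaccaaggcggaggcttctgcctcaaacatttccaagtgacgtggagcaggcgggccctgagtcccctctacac
Cd3g: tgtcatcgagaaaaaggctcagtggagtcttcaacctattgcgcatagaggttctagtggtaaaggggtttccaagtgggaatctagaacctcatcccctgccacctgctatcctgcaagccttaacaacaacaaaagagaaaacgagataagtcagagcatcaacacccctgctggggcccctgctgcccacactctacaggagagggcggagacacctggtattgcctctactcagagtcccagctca
The Cd3g stretch holds no match. The Cd3e stretch runs from position -250 to -17 relative to its start, because the bases after it overlap an annotated exon and were left out. The full 250 bases of Cd3e also held the longer string CAGGAAG, which is not in the stretch shown. A further match in Cd3e therefore lies at or within the bases left out. In the 250 bases before each start in the whole table, AGGAAG on either strand was found in 17 of 40 promoters of the listed genes (42.5%) and in 29.5% of all 32851 promoters. A promoter was held for 27 of the 39 genes, 15 of them with a match. It was 1 of 14 strings searched, and is shown after all were seen. Among the others, TGTGGT, the core of RUNX sites, was in 22.5% of the listed genes' promoters and 14% of all, and CTTTGAT, a TCF/LEF string, in 2.5% and 3.21%. A match is a description of letters and not of a bound site.

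Cd3e stood at 2.94, 0 and 1.06 in saline and at 21.6, 75.8 and 88.8 in bleomycin. Cd3g was read at 0, 1.09 and 5.3, then at 18.9, 59.3 and 69.8. Cd3d gave 1.96, 4.35 and 3.18, then 21.6, 39.6 and 41.4. In each of the 3, every bleomycin library lay above every saline library, with replicate 1 the lowest of its group. The log2 differences were 4.74 ± 0.72 (SE) for Cd3e (limma adjusted p = 0.0033), 4.22 ± 0.79 for Cd3g (adjusted p = 0.0086) and 3.06 ± 0.48 for Cd3d (adjusted p = 0.0040). From summed reads these were rises of 44.4-fold, 23.5-fold and 10.9-fold. The zeta chain gene Cd247, which completes the complex, was at 5.88, 7.61 and 2.12 and then at 8.98, 20.9 and 35.3. Its groups did not overlap, although bleomycin replicate 1 was only just above the highest saline library, and the gene missed the minimum for testing.

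The constant regions of the receptor's beta chain come from a pair of near-identical genes on chromosome 6, Trbc1 (ENSMUSG00000076490, 41538218 to 41539881) and Trbc2 (ENSMUSG00000076498, 41546730 to 41548352), which the counting may not have separated. Over the 500 coding bases of their first 3 exons, 19 differed (96.2% identical), of which 1 of 375 lay in the first exon and 18 of 125 in the later exons. The longest identical run was 259 bases, from position 1 to 259, counted from the first base of the constant-region coding sequence in the GENCODE annotation. The windows below hold all 19 differences, in capitals, and show where a read within these 500 bases can tell the genes apart. The exons cover 749 bases in Trbc1 and 692 in Trbc2, and the bases outside the 500 were not compared. Positions 231 to 290 hold the single first-exon difference, C260A (Trbc1 base, position, Trbc2 base), at chr6:41538448-41538507 and chr6:41546960-41547019. Positions 376 to 500 are joined across introns, within chr6:41539114-41539335 and chr6:41547610-41547878, all on the plus strand of GRCm38:
Trbc1, 231 to 290: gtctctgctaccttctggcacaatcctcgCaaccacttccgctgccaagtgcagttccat
Trbc2, 231 to 290: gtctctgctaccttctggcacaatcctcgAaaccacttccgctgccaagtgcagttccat
Trbc1, 376 to 500: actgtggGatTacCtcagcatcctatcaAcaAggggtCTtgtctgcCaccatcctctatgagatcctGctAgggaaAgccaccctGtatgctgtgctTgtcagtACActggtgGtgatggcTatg
Trbc2, 376 to 500: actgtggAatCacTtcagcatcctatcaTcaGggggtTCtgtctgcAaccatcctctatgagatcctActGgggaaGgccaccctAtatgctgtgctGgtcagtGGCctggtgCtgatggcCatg
Trbc2 was at 0.981, 0 and 0 in saline and at 15.3, 56 and 80.2 in bleomycin. Trbc1 was at 0, 4.35 and 0, then at 15.3, 42.9 and 35.3. Neither gene overlapped between groups, and both were at 15.3 in bleomycin replicate 1. The log2 difference was 5.07 ± 0.72 for Trbc2 (limma adjusted p = 0.0024) and 4.08 ± 0.79 for Trbc1 (adjusted p = 0.0105). Trbc2 rests on 161 reads in the bleomycin libraries and 1 in the saline libraries, which gives a ratio of 146 and a 95% exact binomial interval from 25.8 to 5795 that covers counting error only. Trbc1 was no longer called without bleomycin replicate 2 (adjusted p = 0.0611) or 5 (adjusted p = 0.0557).

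Of the listed kinases and adaptors that act just below the receptor, Lck, Zap70, Lat and Skap1 were tested and rose, to different extents; the adaptor Grap2 of the wider list fell. Lck, the kinase that starts signalling, was at 4.9, 13 and 11.7, then at 28.7, 103 and 103. Zap70, which binds the phosphorylated CD3 chains, was at 0.981, 1.09 and 0, then at 18.9, 23.1 and 47.4. For both, the lowest bleomycin library was above the highest saline library. Log2 differences were 2.76 ± 0.58 for Lck (limma adjusted p = 0.0148) and 4.15 ± 0.61 for Zap70 (adjusted p = 0.0029), the latter from 2 reads over the saline group (ratio 43.9, 95% counting interval 11.8 to 368). Lck was not called without bleomycin replicate 2 (adjusted p = 0.0721) or 5 (adjusted p = 0.0735).

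Lat, the scaffold that Zap70 phosphorylates, had the highest saline level of the receptor and signalling genes, per kb of exon too. It was at 61.8, 49.98 and 85.9, then at 163, 166 and 185, and bleomycin replicate 1 was not set apart in it. The difference was 1.40 ± 0.25 on the log2 scale, a 2.61-fold rise (limma adjusted p = 0.0068). Lat is known from mast cells, platelets and NK cells as well as T cells. Skap1, an adaptor that links the receptor to integrin adhesion, gave 0, 1.09 and 6.36, then 11.7, 27.5 and 23.3. Its log2 difference of 3.05 ± 0.79 (limma adjusted p = 0.0365) was not called without saline replicate 1 (adjusted p = 0.0770) or 2 (adjusted p = 0.0891), nor without bleomycin replicate 2 (adjusted p = 0.152) or 5 (adjusted p = 0.139). Themis, needed for T cell selection, reached 2.69 to 9.48 in bleomycin and at most 1.09 in saline. Sh2d1a, the SLAM-associated adaptor SAP, was seen at 8.79 and 0.862 in bleomycin replicates 2 and 5 and at 0 in the other 4 libraries. Both were below the minimum for testing.

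Surface glycoproteins that tune the receptor signal were also higher. Cd6, which binds the adhesion molecule ALCAM, was at 1.96, 0 and 0, then at 28.7, 56 and 59.5. Its paralogue and neighbour Cd5, an inhibitor of receptor signalling that lies with it in 112.9 kb of chromosome 19, was at 5.88, 5.43 and 2.12, then at 18.9, 29.7 and 37.1. Neither overlapped between groups. Cd6 differed by 5.03 ± 0.63 (log2, limma adjusted p = 0.0013) with 2 reads over the saline group, and Cd5 by 2.46 ± 0.51 (adjusted p = 0.0137). Ptprcap, the partner of the CD45 phosphatase in lymphocytes, went from 14.7, 23.9 and 9.54 to 37.7, 73.6 and 99.99, a log2 difference of 2.05 ± 0.47 (limma adjusted p = 0.0214). Its exons overlap Coro1b and Rps6kb2, so its reads cannot be assigned with certainty. Cd5 was not called without bleomycin replicate 2 (adjusted p = 0.0736) or 5 (adjusted p = 0.0840). Ptprcap was not called without either of these (adjusted p = 0.0887 and adjusted p = 0.104), without saline replicate 1 (adjusted p = 0.0519) or without saline replicate 3 (adjusted p = 0.0630). With the replicate number as a block the adjusted p was 0.169 for Cd5 and 0.135 for Ptprcap. All 12 tested genes of the 15 in the receptor and signalling group were called higher, beside 9.76% of all tested genes. For 9 of the 12, only bleomycin libraries reached the minimum, and such genes had to differ. The median log2 difference over the 15 was 3.05 (3.44 from summed reads and bounds).

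Both coreceptor types were higher after bleomycin. Cd4 (ENSMUSG00000023274, chromosome 6, 124864692 to 124888221), the coreceptor of helper T cells, was at 20.6, 0 and 9.54 in saline and at 54.8, 154 and 172 in bleomycin. Cd8a (ENSMUSG00000053977, chromosome 6, 71373427 to 71379173) was at 1.96, 0 and 0, then at 24.3, 49.4 and 79.3. Cd8b1, which lies with Cd8a in a stretch of 56.4 kb and encodes the other chain of the CD8 dimer of cytotoxic T cells, was at 0 in all saline libraries and at 14.4, 47.2 and 37.1 in bleomycin. The groups did not overlap for any of the 3. Cd4 differed by 4.23 ± 1.03 on the log2 scale (limma adjusted p = 0.0283), Cd8a by 5.03 ± 0.67 (adjusted p = 0.0018) and Cd8b1 by 4.93 ± 0.64 (adjusted p = 0.0016). From summed reads the log2 difference of Cd4 was lower, at 3.60. Against a floor of 3 reads over the saline group Cd8b1 was at least 30.8-fold higher. Cd4 was not called without saline replicate 3 (adjusted p = 0.0517), nor with bleomycin replicates 2 or 5 left out (adjusted p = 0.0939 and adjusted p = 0.105), and its log2 difference ran from 2.92 without saline replicate 2 to 5.14 without saline replicate 1. Per kb of exon, Cd4 was 2.04, 2.81 and 1.96 times Cd8a in bleomycin replicates 1, 2 and 5. The excess over Cd8b1 was smaller: per kb, Cd8b1 was at 9.69, 31.9 and 25 and Cd4 at 13.6, 38.2 and 42.8 in the same libraries. How far Cd4 exceeded CD8 thus depends on the CD8 chain used. Relative to the mean of the 3 CD3 genes per kb, Cd4 was 1.78, 1.96 and 1.95 and Cd8a was 0.872, 0.697 and 0.992 in the same order. Both coreceptors were thus in nearly the same ratio to CD3 in replicate 1 as in the other 2. Cd4 and Cd8a are also made by some dendritic cells and macrophages, whereas the CD8 beta chain is not known from them.

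Costimulatory receptors were called higher in 3 of 4 cases, beside 9.76% of all tested genes. For 3 of the 4, only bleomycin libraries reached the minimum, and such genes had to differ. Ctla4, the inhibitory receptor that competes with CD28 and is high in regulatory T cells, had no saline read and stood at 18.9, 25.3 and 31 in bleomycin. Icos, a receptor of activated T cells, was at 0.981, 0 and 4.24, then at 37.7, 58.2 and 96.5. Cd28, the main costimulatory receptor of naive T cells, was at 2.94, 1.09 and 0, then at 16.2, 59.3 and 55.2. These 3 genes lie together in 283.5 kb of chromosome 1 (60716800 to 61000320), and in none did the groups overlap. Log2 differences were 4.68 ± 0.57 for Ctla4 (limma adjusted p = 0.0012; at least 24.2-fold higher against the floor), 4.80 ± 0.68 for Icos (adjusted p = 0.0024) and 4.26 ± 0.72 for Cd28 (adjusted p = 0.0055). Ctla4 was the most even of them over bleomycin libraries, with replicate 1 at 67% of the mean of replicates 2 and 5 against 48.8% for Icos and 28.2% for Cd28. Cd27, a TNF receptor family member of naive and memory T cells, was the one tested gene that was not called. It was at 14.7, 3.26 and 0, then at 8.08, 19.8 and 31.9, so that saline replicate 1 lay above bleomycin replicate 1. Its log2 difference was 2.18 ± 0.98 (limma adjusted p = 0.206; adjusted p = 0.0584 without saline replicate 1, the lowest with 1 library left out). The median over the 4 genes was 4.47 (4.77 from summed reads and bounds).

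Genes of the T lineage and of naive lymphocytes held the largest difference of the list on the log2(value + 1) scale. Tcf7 (ENSMUSG00000000782, chromosome 11, 52252371 to 52283014), which encodes the factor TCF-1, was at 0, 3.26 and 3.18, then at 22.5, 209 and 242. Satb1, a chromatin organiser of T cells, was at 2.94, 4.35 and 0, then at 26.9, 118 and 147. In both, bleomycin replicate 1 lay between the groups, above all saline libraries and far below the other bleomycin libraries. Tcf7 differed by 5.35 ± 0.95 (log2, limma adjusted p = 0.0071) and Satb1 by 4.83 ± 0.82 (adjusted p = 0.0055). Lef1, the relative of Tcf7, was at 0.981, 1.09 and 5.3, then at 4.49, 46.1 and 38.8. Its bleomycin replicate 1 fell within the saline range, and it was below the minimum for testing. Bcl11b, which keeps cells in the T lineage, had no saline read and was at 6.29, 20.9 and 36.2 in bleomycin, at least 20.5-fold higher against the floor of 3 reads, also below the minimum. Ets1, a factor of T, B and NK cells, went from 35.3, 51.1 and 17 to 83.5, 257 and 272. It differed by 2.48 ± 0.53 (log2, limma adjusted p = 0.0160) and was not called without bleomycin replicate 2 (adjusted p = 0.0671) or 5 (adjusted p = 0.0709).

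The GIMAP genes encode GTPases of lymphocyte survival and sit in a cluster of related copies, here 3 genes over 86.3 kb of chromosome 6 (48684549 to 48770851). Gimap3 was at 6.86, 2.17 and 1.06, then at 38.6, 180.2 and 159. Gimap4 was at 1.96, 1.09 and 1.06, then at 29.6, 125 and 125. Gimap6 was at 0.981, 5.43 and 4.24, then at 38.6, 185 and 184. The 3 had almost the same profile over bleomycin libraries, with replicate 1 at 20.9% to 23.7% of the mean of replicates 2 and 5, and no overlap with saline. Log2 differences were 4.82 ± 0.71 for Gimap3 (limma adjusted p = 0.0029), 5.07 ± 0.62 for Gimap4 (adjusted p = 0.0012) and 4.77 ± 0.70 for Gimap6 (adjusted p = 0.0030). Ms4a4b, a membrane protein of T cells related to CD20, was at 1.96, 5.43 and 1.06, then at 18.9, 70.3 and 119. Ltb, the lymphotoxin beta chain of lymphocytes, was at 10.8, 20.6 and 8.48, then at 59.3, 93.4 and 130.2. Groups did not overlap in either, and the log2 difference was 4.03 ± 0.73 for Ms4a4b (limma adjusted p = 0.0077) and 2.76 ± 0.43 for Ltb (adjusted p = 0.0038). All 8 tested genes of the 10 in the lineage and naive group were called higher, beside 9.76% of all tested genes. For 6 of the 8, only bleomycin libraries reached the minimum, and such genes had to differ. The median over the 10 was 4.48 (4.90 from summed reads and bounds).

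Of the cytotoxic and NK genes, Nkg7 and Klrd1 rose, whereas perforin, the granzymes and Eomes held too few reads to be tested. Per kb of exon, Klrd1 was at 30.9, 42.9 and 68 and Nkg7 at 14.7, 16.8 and 34 in bleomycin, against 7.64, 19.5 and 21.97 for the mean of the CD3 genes. Nkg7, a granule membrane protein of NK and cytotoxic T cells, had no saline read and was at 13.5, 15.4 and 31 in bleomycin. Klrd1, the CD94 chain of NK receptors, was at 10.8, 2.17 and 9.54, then at 39.5, 54.9 and 87.1. Both kept the groups apart. Log2 differences were 4.30 ± 0.63 for Nkg7 (limma adjusted p = 0.0029; at least 19.6-fold higher against the floor) and 2.99 ± 0.58 for Klrd1 (adjusted p = 0.0099; adjusted p = 0.0549 and not called without bleomycin replicate 5). Perforin and the granzymes, which kill target cells, were close to the limit of detection. Gzmb was at 0.898, 4.39 and 12.9 in bleomycin, Prf1 at 0, 13.2 and 5.17, and Gzma at 0, 6.59 and 1.72, with no more than 1 saline read in any of them. Eomes, a factor of NK and memory CD8 T cells, had 12 reads in all, at 0, 9.89 and 2.59 in bleomycin. Ncr1 encodes NKp46, the receptor that defines mouse NK cells, and had no row in a table that lists no gene at 0 in all 6 libraries. Thus 2 of the 7 genes in the cytotoxic and NK group were called higher, 4 were below the minimum and 1 had no row. Over all tested genes 9.76% were called higher. For 1 of the 2, Nkg7, only bleomycin libraries reached the minimum, so it had to differ. The median log2 difference over the 6 with a row was 2.09 (2.80 from summed reads and bounds). Klrd1 is also made by some dendritic cells.

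**Figure D2:**
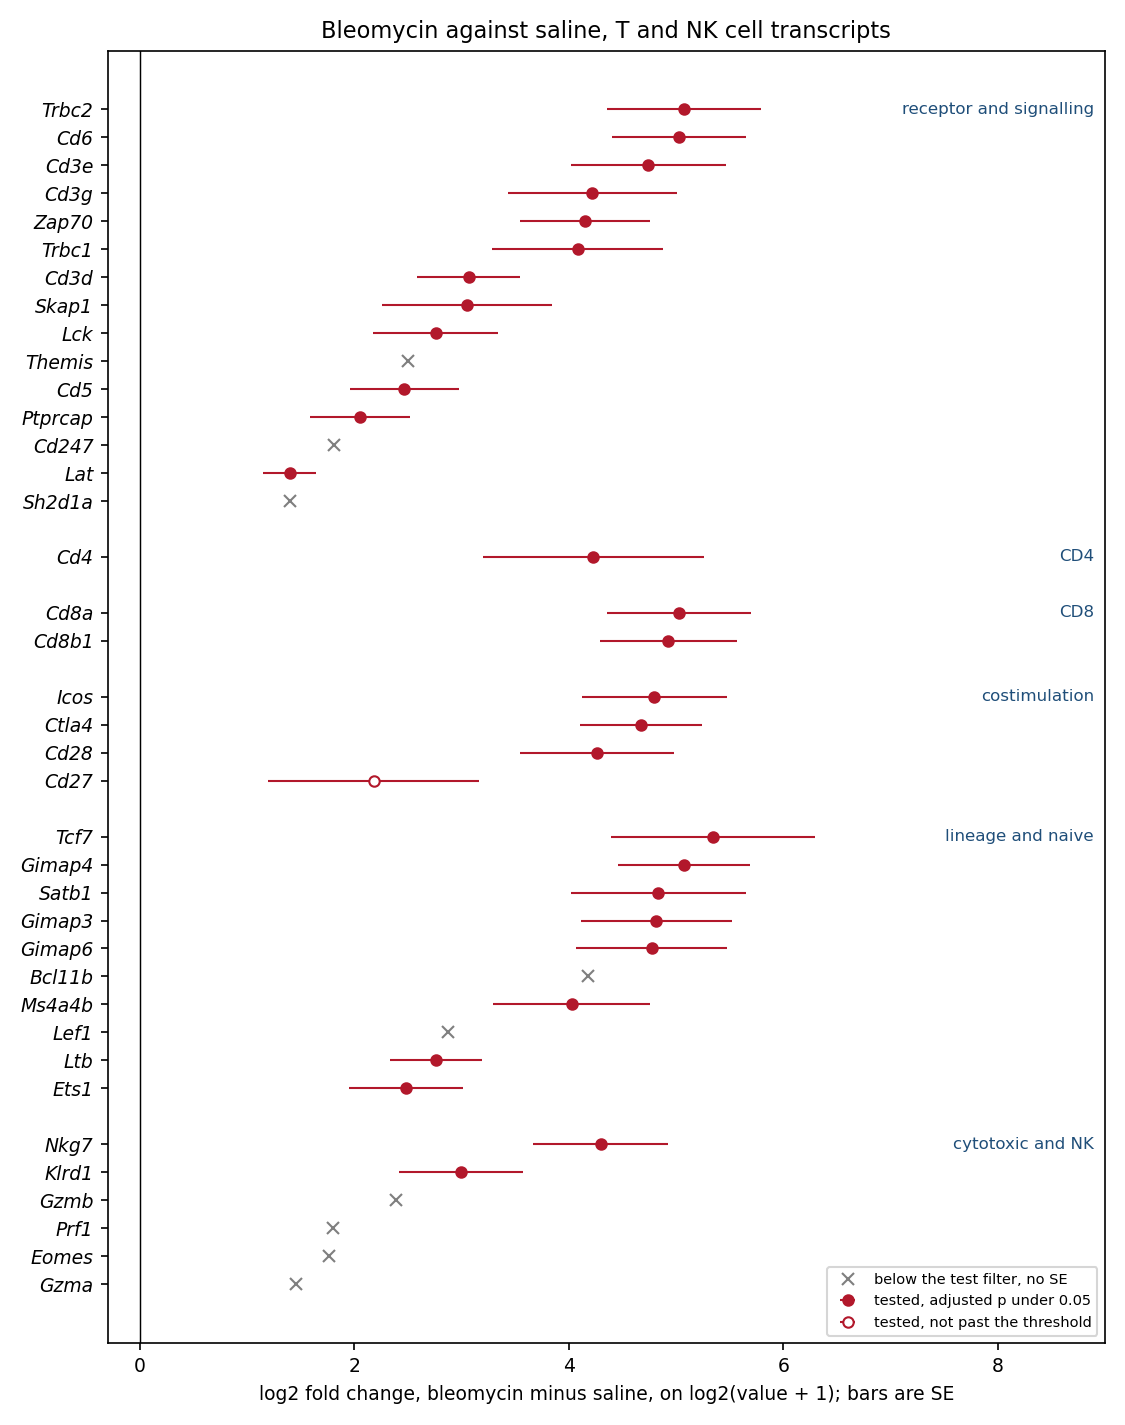
Log2 difference between bleomycin and saline of each of the 38 genes on the log2(value + 1) scale (x axis), with bars of 1 SE for tested genes and crosses for genes below the minimum. All points lie above 0, Cd27 is the open circle that was tested and not called, and Lat has the smallest difference of the called genes.

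The composition of the signal differed between the bleomycin libraries. Replicate 1 was the lowest of the 3 in 38 of 38 genes, and in 46.7% of all tested genes and 79.5% of those called higher. Its level was a median 30.4% of the mean of replicates 2 and 5 over the T and NK genes, against 96.7% over all tested genes and 70.3% over those called higher. This share was not uniform over the groups of genes: the median was 39.1% in the receptor and signalling group, 35.9% for CD8, 33.6% for Cd4, 40% in costimulation, 21.5% in the lineage and naive group and 5.19% in the cytotoxic and NK group, where most genes hold few reads. From summed levels, which rest on the genes with more reads, the share of the cytotoxic and NK group was 44%. On that measure the receptor and signalling group was at 48.2% and the lineage and naive group at 23.8%. Tcf7 was at 9.96% and Lef1 at 10.6%, whereas Lat was at 92.6%. Set against the mean of the 3 CD3 genes per kb of exon, Tcf7 was 1.12, 4.08 and 4.20 in bleomycin replicates 1, 2 and 5, and Lef1 was 0.0669, 0.269 and 0.201. Ctla4 on the same scale was 1.06, 0.556 and 0.606, and Klrd1 4.04, 2.20 and 3.09. Replicate 1 thus had less of the naive-type factors and more Ctla4 for its amount of CD3. Other ratios did not all follow Ctla4. Icos was 1.44, 0.870 and 1.28, with replicate 1 close to replicate 5. Gzmb, which rests on few reads, was 0.0818, 0.157 and 0.410, lowest in replicate 1. These are ratios in single libraries, were chosen after the values were seen and carry no test.

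**Figure D3:**
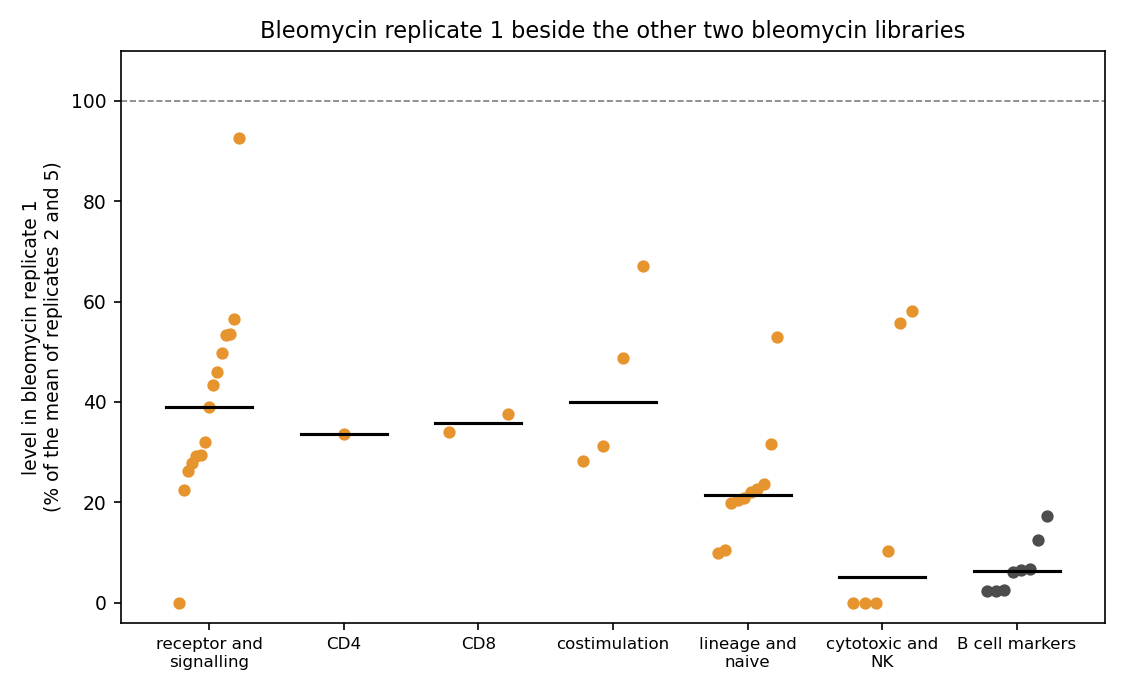
Level in bleomycin replicate 1 as a percent of the mean of bleomycin replicates 2 and 5 (y axis), 1 point per gene, for each group of T and NK genes and for the 8 B cell markers, with a line at each median. The dashed line marks equal levels; the lineage and naive median is 21.5% and the B cell median 6.32%.

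A wider list of 61 T and NK genes, of which 60 had a row, followed the same direction less uniformly. Of the 32 tested, 19 were called higher, 3 lower and 10 were not called, beside 9.76% higher and 3.9% lower over all tested genes. For 11 of the 32, only bleomycin libraries reached the minimum, and such genes had to differ. The list had a median log2 difference over the 60 of 1.88 (2.23 from summed reads and bounds, over the 56 genes for which a ratio can be given). Several of these genes are made by macrophages or dendritic cells too. In the receptor pathway, Trac, the alpha chain constant region, was at 7.84, 5.43 and 6.36, then at 29.6, 78 and 122 (log2 3.16 ± 0.52, limma adjusted p = 0.0051). Thy1, a surface marker of mouse T cells, was at 0.981, 2.17 and 0, then at 33.2, 91.2 and 136 (log2 5.36 ± 0.66, limma adjusted p = 0.0013). In both, bleomycin replicate 1 was again the lowest of its group, at 29.2% to 29.7% of the mean of the other 2. The adaptor Grap2 went the other way, from 1019, 853 and 767 to 246, 407 and 411 (log2 -1.34 ± 0.22, limma adjusted p = 0.0051). The adhesion receptor Cd2, named after its values were seen, was also called lower (12808, 13138 and 15559, then 10710.3, 7395 and 7042; log2 -0.74 ± 0.17, limma adjusted p = 0.0229). Cd2 was not called without saline replicates 2 or 3 or bleomycin replicates 2 or 5 (adjusted p = 0.0512 to 0.103), nor with the replicate block (adjusted p = 0.326). Both were abundant in saline libraries, where the receptor genes were near 0.

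Among genes of homing and trafficking, Il7r, the interleukin 7 receptor, was at 64.7, 32.6 and 48.8, then at 881, 1955 and 2202 (log2 5.03 ± 0.37, limma adjusted p = 1.5e-04). S1pr1, the receptor for egress from lymphoid organs, was at 4.9, 1.09 and 8.48, then at 68.3, 237 and 228 (log2 4.99 ± 0.67, limma adjusted p = 0.0018). Cxcr6, a chemokine receptor of tissue T cells, was at 0.981, 1.09 and 1.06, then at 35.9, 39.6 and 53.4 (log2 4.41 ± 0.45, limma adjusted p = 5.8e-04). The groups did not overlap in these 3, and Cxcr6 was nearly even over bleomycin libraries, with replicate 1 at 77.3% of the other 2. Per kb of exon Il7r was at 189, 419 and 472 in bleomycin, against 7.64, 19.5 and 21.97 for the mean of the CD3 genes.

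Of the factors Gata3, Foxp3 and Tbx21, which mark T helper subsets, only Gata3 reached the minimum for testing. Gata3, of type 2 helper cells, was at 2.94, 1.09 and 5.3, then at 14.4, 28.6 and 40.5 (log2 2.84 ± 0.61, limma adjusted p = 0.0161). Foxp3, of regulatory T cells, was at 0.981, 0 and 0, then at 7.19, 18.7 and 31, with a ratio of 55.2 (95% counting interval 9.55 to 2217). Tbx21, of type 1 cells, ran from 2.17 to 5.3 in saline and from 8.79 to 15.5 in bleomycin. All 3 were higher in every bleomycin library than in any saline library, Gata3 alone with a test. Il2ra, the CD25 chain, was at 6.86, 2.17 and 24.4, then at 29.6, 89 and 75 (log2 2.79 ± 0.75, limma adjusted p = 0.0423), and Il4 at 33.3, 23.9 and 31.8, then at 75.5, 69.2 and 53.4 (log2 1.13 ± 0.29, adjusted p = 0.0345). Interferon gamma (Ifng) had 8 reads in all, at 0.898, 0 and 6.03 in bleomycin. The exhaustion receptor Pdcd1 was at 0, 0 and 2.12, then at 18, 59.3 and 62.1 (log2 4.83 ± 0.72, limma adjusted p = 0.0030), and Lag3 at 44.1, 29.3 and 53, then at 84.4, 111 and 154 (log2 1.44 ± 0.32, adjusted p = 0.0201). Each kept the groups apart. Several of these calls did not hold under other settings. That of Il4 was lost without any 1 library (adjusted p = 0.0548 to 0.151), with no filter (adjusted p = 0.0646), with a minimum of 50 (adjusted p = 0.0540) and with the replicate block (adjusted p = 0.128). Il2ra was not called by edgeR (adjusted p = 0.0541), nor without saline replicates 1 or 2 or bleomycin replicates 2 or 5 (adjusted p = 0.0912 to 0.152). Gata3 was not called without bleomycin replicates 2 or 5 (adjusted p = 0.0799 and adjusted p = 0.0944). Lag3 was not called without these or saline replicate 2 (adjusted p = 0.0509 to 0.102), nor with the block (adjusted p = 0.0519). Among receptors and granule genes of cytotoxic cells, Klrk1, which encodes NKG2D, was at 8.83, 4.35 and 6.36, then at 40.4, 89 and 103 (log2 3.33 ± 0.46, limma adjusted p = 0.0022). Il2rb and the cathepsin Ctsw differed by 4.59 ± 0.67 (adjusted p = 0.0028) and 5.01 ± 0.80 (adjusted p = 0.0041) by the same test.

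Markers of other leukocytes moved in the same libraries. The 8 B cell genes summed to 8.83, 6.52 and 6.36, then to 39.5, 596 and 415, and 5 of the 8 had no saline read. The 1 tested gene, Cd79a, was called higher. It passed the minimum through bleomycin libraries only, so it had to differ in that direction and its call is no support. Like the T cell genes, the B cell genes were low in bleomycin replicate 1, at a median 6.32% of the other 2. Dendritic cell markers summed to 2143, 1281 and 1636, then to 2855, 3249 and 3357, with 5 of 8 called higher (9.76% of all tested genes were) and 3 not called, and none of the 8 was at 0 over a group. Monocyte genes summed to 216 to 224, then to 976 to 1858, with 2 of 3 tested called higher, on the same background. Mast cell and basophil genes did not follow: Mcpt8, Ms4a2 and Fcer1a had no row, and the other 2 summed to 19.6 to 310 in saline and 49.4 to 90.5 in bleomycin. The part of these other cells in the values of Cd4, Cd8a, Klrd1, Ltb and Ets1, which they share with T cells, was not tested. Nor was their part in the other listed genes, such as the Gimap genes and Ptprcap, described above as genes of lymphocytes. Resident macrophage markers fell in 3 of 8 genes (Siglecf, Car4 and Chil3), beside 3.9% of all tested genes, and 5 were not called. The call of Chil3 was lost without saline replicates 1 or 3 or bleomycin replicates 2 or 5 (adjusted p = 0.0960 to 0.186). It was also lost with no filter and with the replicate block. Among dendritic cell genes, Ccl22 lost its call with no filter, a minimum of 50 and the block (limma adjusted p = 0.05001 to 0.286). With 1 library left out it was called only without saline replicate 3. Cd209a was not called when bleomycin replicate 1, 2 or 5 was left out (adjusted p = 0.0567 to 0.0904). The monocyte gene Ly6c2 was not called by DESeq2 (adjusted p = 0.0997).

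**Figure D4:**
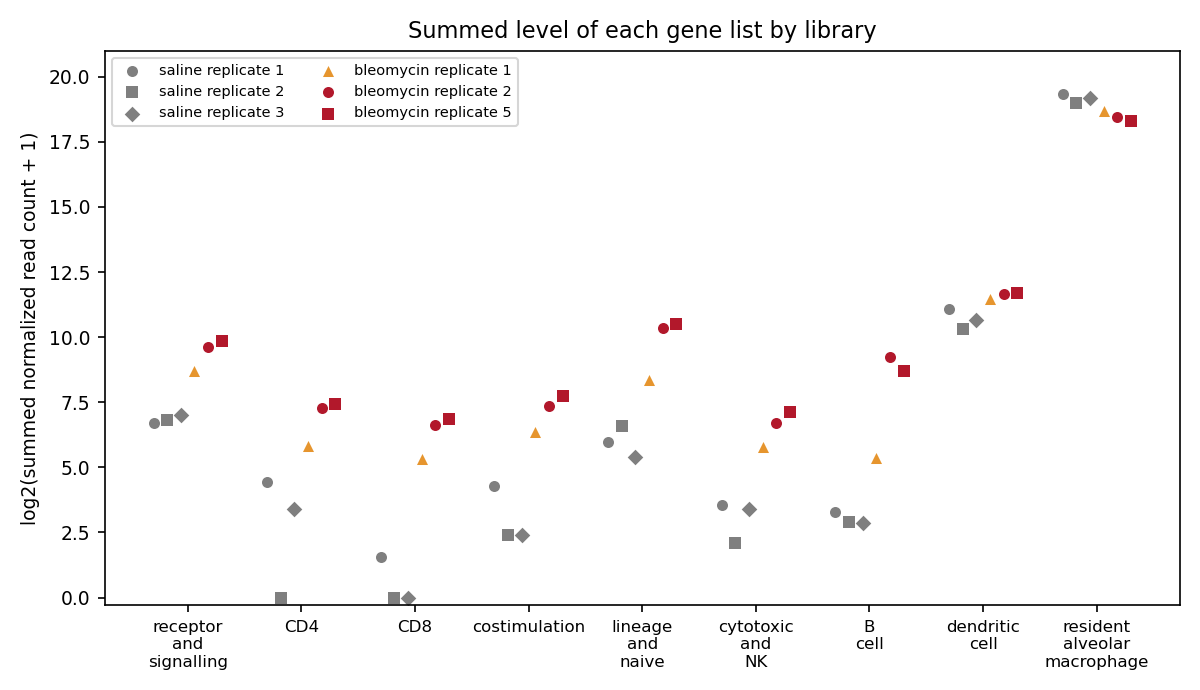
Summed level of each group of T and NK genes, and of B cell, dendritic cell and resident alveolar macrophage markers, as log2(summed normalized read count + 1) on the y axis, 1 marker per library. Every T and NK group is higher in each bleomycin library than in each saline library, bleomycin replicate 1 is the lowest bleomycin library in each of them and among B cells, and resident macrophage markers are the highest list throughout.

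Leaving out a library changed how many genes could be called. Without replicate 1, 31 of the 32 T and NK genes then tested were called higher, where 11.5% of all tested genes were. Without replicate 2 it was 21 of 29 (5.7% of all) and without replicate 5 it was 20 of 29 (5.52%). Leaving out saline replicates 1, 2 and 3 gave 27, 28 and 27 of 32 (8.93%, 9% and 8.43%). Without a filter 30 of 38 were called (6.87%), Bcl11b and Themis in addition, and with a minimum of 50 in 3 libraries the 4 genes still tested were all called (8.23%). With the replicate number as a block 26 of 29 were called (7.05%). The same 28 genes were called with pseudocounts of 0.5 and 5, TMM rescaling, edgeR and DESeq2, under which 9.59%, 10.1%, 10.3%, 9.64% and 11.4% of all tested genes were called higher. The size of a difference moved by over 1.5-fold for 17 of the 29 genes when 1 library was left out. Without bleomycin replicate 1 it rose for Cd28, Cd3e, Gimap3, Gimap4, Gimap6, Lck, Ms4a4b, Satb1, Tcf7 and Trbc2, to log2 values from 3.36 (Lck) to 6.43 (Tcf7), and without bleomycin replicate 5 that of Tcf7 was 4.75. Without saline replicate 1 it was 3.15 for Cd27, 3.60 for Cd3g, 5.14 for Cd4, 2.39 for Skap1 and 4.65 for Tcf7. Without saline replicate 2 it was 2.92 for Cd4, 2.39 for Klrd1 and 4.89 for Trbc1. Without saline replicate 3 it was 1.17 for Cd27, 4.93 for Cd3g, 5.43 for Icos, 4.10 for Satb1 and 3.84 for Skap1.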

How the data were processed

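Total RNA of adherent lavage cells was sequenced in 3 saline and 3 bleomycin libraries, grouped by the treatment in the labels. The build mm10 and the tools HTSeq 0.6.0, STAR 2.5.2b, DESeq2 and bcl2fastq 2.18.0.12 are credited to the submitters' processing notes. Which step each tool served, the annotation release, the strand setting and filters: not given in the sources used here. In the deposited table the authors give a normalized signal made from read counts: each value was a whole number of reads (within 0.05 of a read, 100% of values above 0) divided by 1 size factor per library, so that 3 reads were worth 2.59 to 3.3. Symbols were found for 22873 of 22962 gene identifiers, and positions and exon lengths are from GENCODE for GRCm38 (mm10). Exons of 12 listed genes overlap another gene, whose reads could not be separated without a known strand setting; counting of near-identical copies is likewise unknown.

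The test needed 10 units or more in 3 libraries (2 with 1 library left out). It was limma 3.58.1 (R 4.3.3), run on log2(value + 1), two-sided, with a trend on mean level and Benjamini-Hochberg adjustment over all tested genes. Folds are ratios of a group's summed reads over its summed size factors; for genes at 0 a floor of 3 reads over the group was used, and for 1 to 3 saline reads a 95% exact binomial interval is given, which covers counting error only. As alternatives, TMM rescaling, a minimum of 50 or none, pseudocounts of 0.5 and 5, edgeR 4.0.16 and DESeq2 1.42.0 on recovered reads, a replicate block and the omission of each library were tried. All listed genes are named, those with a group mean of at least 10 with each library's value; of the wider list, the 3 genes of each of its parts with the smallest p and Trac, Foxp3, Gata3, Tbx21, Ifng and Klrk1; a few genes of the wider list are not reported here by name. The genes and lists were chosen with earlier results of these data known.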

Additional observations from a re-analysis of the deposited data

How the results depend on the processing

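None of the 29 tested T and NK genes changed direction in a setting that was run for it, and 20 of the 28 T and NK genes called higher kept the call in every setting in which they were tested; Cd4, Cd5, Ets1, Klrd1, Lck, Ptprcap, Skap1 and Trbc1 did not. The count of 28 became 4 with a minimum of 50, because only 4 were tested, and 20 to 31 with 1 library left out (20 without bleomycin replicate 5, 21 without bleomycin replicate 2, 31 without bleomycin replicate 1). The wider list's 22 calls became 34 with no filter and 10 with a minimum of 50, and 15 to 26 with 1 library left out. Over all genes the 1846 calls became 941 to 2238 with 1 library left out, the lowest without bleomycin replicate 5 and 993 without bleomycin replicate 2. Whether the replicate numbers pair the samples is not stated in the labels. Deviations of same-numbered libraries correlated at -0.201 for number 1 and 0.0237 for number 2, which cannot decide it with so few libraries. Numbers 3 and 5 each occur in 1 group. With the replicate block, which rests on replicates 1 and 2, 26 T and NK genes, 16 of the wider list and 1147 genes overall were called, and Cd5 and Ptprcap lost the call. Median log2 differences of low groups depend on the pseudocount: that of the cytotoxic and NK group ran from 0.93 with a pseudocount of 5 to 4.79 with edgeR. The medians were not run with a minimum of 50, which leaves 4 genes. TMM moved the median over all genes by 0.02. In saline most of these genes rest on fewer than 10 reads, so the size of their rise is known only within wide limits.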

Other observations

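Constant-region transcripts of the gamma and delta chains, which form the other type of T cell receptor, were found in bleomycin libraries alone. Which cells made them was not tested. The constant region Trdc was at 0.898, 3.3 and 1.72 in bleomycin replicates 1, 2 and 5, Tcrg-C1 at 2.69, 16.5 and 14.7, Tcrg-C2 at 4.49, 5.49 and 4.31 and Tcrg-C4 at 5.39, 3.3 and 6.9, all with no saline read and all below the minimum for testing. The gamma constant genes are close copies, so their reads may be shared. Tcrg-C1 was at least 10.6-fold higher against the floor of 3 reads over the saline group.

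Type 2 genes were among the cytokine transcripts seen. Il13 had no saline read and was at 4.49, 25.3 and 19.8 in bleomycin, at least 15.4-fold higher against the floor, while Il5 was read in bleomycin replicate 2 alone, at 4.39. Il17a had 3 reads in all libraries together. Il1rl1, the interleukin 33 receptor chain of innate lymphoid cells type 2, regulatory T cells and mast cells, was at 0.981, 1.09 and 0, then at 15.3, 28.6 and 51.7 (log2 4.19 ± 0.64, limma adjusted p = 0.0034). Only bleomycin libraries reached the minimum for Il1rl1, so it had to differ. Of the 6 genes listed for innate lymphoid cells type 2, 3 were tested and only Il1rl1 was called, beside 9.76% called higher over all tested genes. Together the 6 summed to 1259, 1455 and 1364 in saline and to 1021, 1228 and 1385 in bleomycin. Other NK receptor genes stayed low: Klrb1c (NK1.1) was at 1.96, 5.43 and 8.48 in saline and at 8.08, 6.59 and 10.3 in bleomycin, with groups that overlapped, and Klra8 had 2 reads in all. These genes were named after their values were seen.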
